A study of Mus musculus with 11 samples.

Results

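Heat shock and endoplasmic reticulum (ER) stress genes were followed in mouse microglia, the resident macrophages of the brain, on 11 single-colour Agilent arrays. The list held 10 genes, Hspa1a, Hspa1b, Hsph1, Hsp90aa1, Dnajb1, Hspa5, Xbp1, Atf4, Ddit3 and Trib3, chosen by name and found on the arrays through the RefSeq accession carried by each probe. Of these, 9 were among the 19565 genes tested. No probe was matched to Hsp90aa1, which encodes the inducible cytosolic Hsp90, so it was not analysed here. The samples formed 4 groups from wild-type C57BL/6N mice. A_FACS (2 arrays) was microglia sorted from adult female brain, and NB_FACS (3 arrays) was microglia sorted from newborn pups of both sexes. Both were gated on intermediate CD45 and high CX3CR1 after warm enzymatic dissociation with trypsin and no transcription inhibitor, and RNA was taken at once. NB_Control and NB_Stim (3 arrays each) came from newborn mixed glia grown for weeks in serum-containing DMEM/F12 with L-929 conditioned medium, from which microglia were shaken off and kept for 1 further day in culture. NB_Stim received human TGF-beta1, IL-34 and CX3CL1 in that time, each at 100 ng/mL, and NB_Control received none. Adult mice were killed with carbon dioxide and perfused, and their brains were pressed through a strainer. Newborn pups were decapitated, and their brains were dissociated by pipetting. The comparison of sorted with cultured cells therefore held isolation, time in culture and serum together. That of adult with newborn sorted cells held age, sex, killing and dissociation method together. Within each comparison these cannot be told apart.

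When proteins misfold in the cytosol, the transcription factor HSF1 is released from chaperones and switches on Hsp70, Hsp110, Hsp40 and Hsp90 genes through heat shock elements. When they misfold in the ER, the sensors IRE1, ATF6 and PERK raise ER chaperones, splice the Xbp1 mRNA and phosphorylate eIF2alpha, which favours translation of ATF4 and in turn transcription of its targets Ddit3 and Trib3. Tissue dissociation at warm temperature is a known inducer of heat shock and immediate early genes in microglia.

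The promoter stretches below were read from RefSeq windows on GRCm38.p6 and are shown because they hold the motifs searched for. The windows ran from 250 bases before to 50 bases after each annotated start, and 9 of the 10 genes had one. Capitals mark the matches, except that the motif CCAAT on its own is left in lower case. The first 4 stretches are the 130 bases before the start.
Hspa1a, chr17:34972157-34972286, minus strand: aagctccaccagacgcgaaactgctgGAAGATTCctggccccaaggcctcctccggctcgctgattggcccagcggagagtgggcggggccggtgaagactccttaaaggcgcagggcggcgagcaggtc
Hspa1b, chr17:34959239-34959368, minus strand: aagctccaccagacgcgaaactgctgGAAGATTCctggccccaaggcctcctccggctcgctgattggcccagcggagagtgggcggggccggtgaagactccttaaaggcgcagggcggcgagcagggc
Hsph1, chr5:149636337-149636466, minus strand: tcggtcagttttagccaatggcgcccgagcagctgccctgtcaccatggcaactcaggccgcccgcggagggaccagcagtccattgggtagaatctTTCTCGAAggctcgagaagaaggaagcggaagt
Hspa5, chr2:34771960-34772089, plus strand: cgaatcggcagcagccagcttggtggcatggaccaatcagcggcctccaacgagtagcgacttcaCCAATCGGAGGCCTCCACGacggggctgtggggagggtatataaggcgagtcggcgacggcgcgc
Trib3, chr2:152344028-152344057, minus strand, bases 4 to 33 after the start: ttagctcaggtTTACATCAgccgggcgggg

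Both Hsp70 genes held the same heat shock element pair (GAANNTTC or TTCNNGAA, either strand) from base -104 to base -97. Their 300-base windows were 98.7% identical, with 4 bases that differed. Hsph1 held such a pair before its start and 2 overlapping ones after it, which together form the triplet TTCNNGAANNTTC. A pair was present in 15.1% of all 32851 promoter windows and a triplet (GAANNTTCNNGAA or TTCNNGAANNTTC) in 0.603%. Hspa5 held the ER stress response element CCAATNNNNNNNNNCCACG from base -65 to base -47, a match found in 0.119% of windows. Trib3 held the C/EBP-ATF response element core TGATGNAA on the opposite strand (bases 15 to 22), found in 3.97% of windows. The CCAAT box, which the ER element contains, was in 37.4% of windows and in those of 7 members. No window of a member held the unfolded protein response element TGACGTGG (0.676% of windows), and neither Dnajb1, Xbp1, Atf4 nor Ddit3 held any of these motifs other than CCAAT. A match describes the letters only, and its absence says only that they were not in this window.

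**Figure D1:**
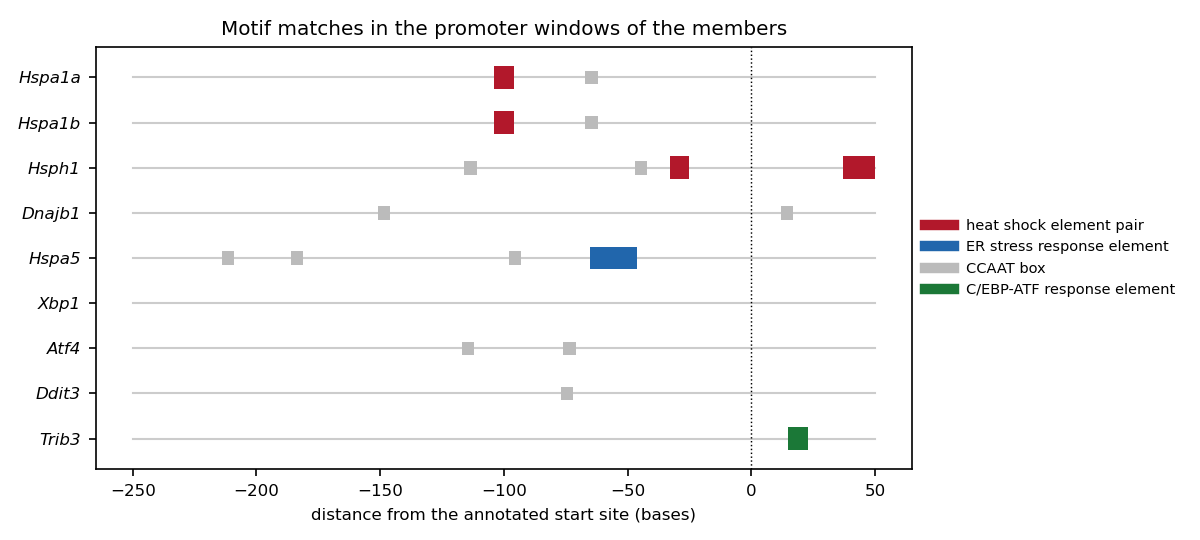
Motif matches in the RefSeq promoter windows of the 9 measured members, plotted by distance in bases from the annotated start (dotted line), with 1 row per gene and 1 colour per motif. Heat shock element pairs lie at the same place in Hspa1a and Hspa1b and on both sides of the start in Hsph1, and the ER stress response element lies just before the start of Hspa5.

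Between 66.8% and 80.5% of probes were well above background on an array. Slide 2 held replicate 3 of each newborn group and was brighter before normalisation, with a 75th percentile signal of 446 to 509 against 173 to 315 on slide 1. Values below are log2 levels after quantile normalisation, which can be compared between arrays for one gene but not between genes. The microglia markers had a mean level of 14.04 to 14.21 on A_FACS arrays, 12.95 to 13.08 on NB_FACS, 10.29 to 10.99 on NB_Control and 12.26 to 12.44 on NB_Stim, and all 9 measured markers, Tmem119 and P2ry12 among them, were above background on every array. Of the other lineages, fibroblast markers were higher in culture (10.35 to 11.09) than in sorted cells (5.19 to 7.25), and erythroid markers were higher in sorted cells (8.02 to 11.11) than in culture (4.66 to 5.06). Oligodendrocyte lineage markers were at 6.25 to 7.02 in sorted cells, 7.82 to 8.43 in NB_Control and 9.4 to 10.11 in NB_Stim, and all 4 measured, Olig1, Olig2, Mbp and Cspg4, were above background on every array. The labels do not say that replicates came from separate animals or cultures, so that p-values measure the spread between these arrays, and in RNA of mixed cells fewer cells of a type and less RNA per cell cannot be told apart.

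The stress genes were highest in sorted adult cells, lower in sorted newborn cells and mostly lowest in culture. Hspa1a and Hspa1b, the paired genes for inducible Hsp70, spanned the widest range, and Trib3 ran the other way in the newborn groups. For 7 of the 9 genes both A_FACS arrays lay above all 9 other arrays, the exceptions being Atf4 and Trib3. For 7 of the 9, all but Hsph1 and Trib3, each of the 5 sorted arrays lay above each of the 6 cultured arrays. All 9 passed limma's F test of the 4 groups (adjusted p between 3.59e-07 for Hspa1a and 0.0312 for Trib3), as did 48.8% of all genes tested. All 9 were on probes above background on 11 arrays, except for 1 of the 2 Ddit3 probes, which was above it on 10.

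**Figure D2:**
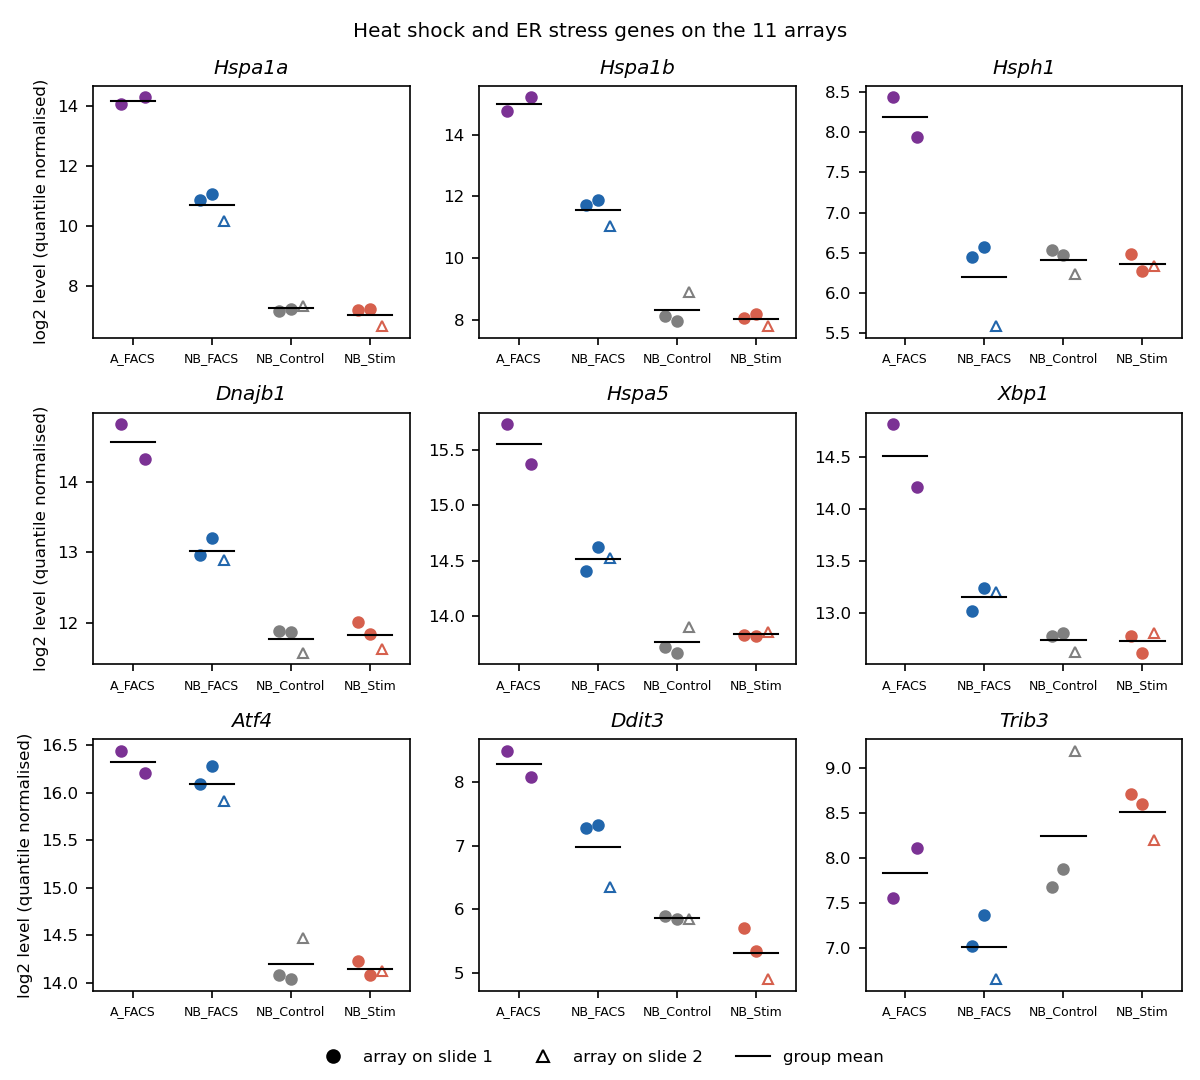
Log2 level of each measured member (vertical axis, quantile normalised, own scale in each panel) on each array by group, with filled circles for slide 1, open triangles for slide 2 and a bar for the group mean. The sorted adult arrays are highest in 7 panels, the cultured arrays are lowest in most, and Trib3 is lowest in sorted newborn cells.

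Among the cytosolic chaperones, Hspa1a stood at 14.05 and 14.28 on the A_FACS arrays and at 10.85, 11.07 and 10.17 on the NB_FACS arrays. It stood at 7.17, 7.24 and 7.34 in NB_Control and at 7.21, 7.24 and 6.66 in NB_Stim. The sorted groups did not overlap each other or the cultured groups, which overlapped. In the deposited signal before normalisation, Hspa1a ranged from 10700 to 15600 units in A_FACS, from 1100 to 2250 in NB_FACS and from 110 to 262 in culture.

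Its paralog Hspa1b stood at 14.76 and 15.21 in A_FACS and at 11.74, 11.87 and 11.05 in NB_FACS. It stood at 8.14, 7.96 and 8.90 in NB_Control and at 8.07, 8.20 and 7.80 in NB_Stim. The order of the groups was that of Hspa1a, with the cultured groups again overlapping. The 2 genes are nearly identical in sequence, and each was read by 1 probe. The first 30 bases of the Hspa1a and Hspa1b probes, as the scanner files give them, are shown to make clear that the readings came from different stretches:
Hspa1a probe: atatgttatgaaaacatcaggagactgttg
Hspa1b probe: taggttaaagatggtgtatccttcctgcat
The probes shared no run of more than 4 bases, and cross-hybridisation was not tested. Across the 11 arrays, after each gene was centred on its own mean, Hspa1a and Hspa1b differed by 0.15 on average, and no other gene came nearer to Hspa1a than Gm5458 at 0.45 and Nlrp3 at 0.48.

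Hsph1, an Hsp110 that serves Hsp70 as a nucleotide exchange factor, did not follow this order. It stood at 8.43 and 7.94 in A_FACS, at 6.45, 6.57 and 5.59 in NB_FACS, at 6.53, 6.47 and 6.24 in NB_Control and at 6.49, 6.27 and 6.34 in NB_Stim. Only the adult arrays stood apart, and the 3 newborn groups overlapped. Its only probe carries the accession of a predicted transcript. Dnajb1, the Hsp40 co-chaperone that delivers clients to Hsp70, stood at 14.82 and 14.32 in A_FACS and at 12.96, 13.20 and 12.89 in NB_FACS. It stood at 11.89, 11.87 and 11.58 in NB_Control and at 12.01, 11.85 and 11.63 in NB_Stim. Dnajb1 thus kept the order of Hsp70 over a smaller range, 3.24 between its highest and lowest array against 7.62 for Hspa1a. The genes nearest to it in profile were Il17ra (0.12 on average over the 11 arrays), Btg2 and D1Pas1 (0.14 each).

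In the ER branch, Hspa5, which encodes the lumenal Hsp70 BiP, stood at 15.73 and 15.37 in A_FACS and at 14.41, 14.62 and 14.52 in NB_FACS. It stood at 13.72, 13.67 and 13.90 in NB_Control and at 13.83, 13.82 and 13.86 in NB_Stim. Its groups were ordered like those of Dnajb1. Xbp1, the transcription factor whose mRNA is spliced by IRE1, stood at 14.82 and 14.21 in A_FACS, at 13.02, 13.24 and 13.20 in NB_FACS, at 12.78, 12.81 and 12.63 in NB_Control and at 12.78, 12.62 and 12.81 in NB_Stim. The sorted newborn arrays lay above the cultured ones by a narrow gap. Whether its probe separates spliced from unspliced Xbp1 mRNA was not tested. The genes nearest to Xbp1 in profile were Dnajb9 (0.13 on average over the 11 arrays), Toe1 and Cmtm6 (0.14 each). Dnajb9 is an ER co-chaperone of BiP known as an XBP1 target.

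Of the PERK branch, Atf4, the transcription factor of the integrated stress response, stood at 16.44 and 16.21 in A_FACS and at 16.09, 16.28 and 15.91 in NB_FACS. It stood at 14.08, 14.04 and 14.47 in NB_Control and at 14.23, 14.09 and 14.13 in NB_Stim. Atf4 therefore split sorted from cultured cells, with adult and newborn sorted cells overlapping. Eif5, a translation initiation factor, was nearest to Atf4 in profile (0.12 on average over the 11 arrays), followed by Dyrk2 and Ticam1 (0.13 each).

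Ddit3, which encodes the pro-apoptotic factor CHOP, stood at 8.49 and 8.08 in A_FACS, at 7.27, 7.33 and 6.35 in NB_FACS, at 5.90, 5.85 and 5.85 in NB_Control and at 5.71, 5.34 and 4.90 in NB_Stim. These are means of 2 probes, 1 of them named for a predicted transcript, and in these means the 4 groups did not overlap. Trib3, a pseudokinase induced by ATF4 and CHOP that restrains their activity, stood at 7.55 and 8.11 in A_FACS, at 7.02, 7.36 and 6.65 in NB_FACS, at 7.67, 7.88 and 9.19 in NB_Control and at 8.71, 8.60 and 8.20 in NB_Stim. Trib3 was the only member lowest in sorted newborn cells by group mean with every cultured array above them, and its NB_Control replicate 3 stood well above the other two. Its nearest profile was that of Ralgapa2, at a mean difference of 0.27 over the 11 arrays.

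The first comparison asked what differed between microglia taken straight from the newborn brain and those isolated by shaking after culture. Of the 9 genes, 6 were lower in NB_Control and 1 was higher, so 7 were called at an adjusted p under 0.05, against 29.7% of all genes. Of all genes, 13.9% were called lower and 15.8% higher. Hsp70 fell most: Hspa1a was 10.9-fold lower (log2 difference -3.45 ± 0.242 SE, adjusted p = 7.74e-06, limma, n = 3 against 3) and Hspa1b 9.33-fold lower (-3.22 ± 0.289, adjusted p = 3.31e-05). Atf4 was 3.72-fold lower (-1.9 ± 0.16, adjusted p = 2.21e-05 in limma) and Dnajb1 2.36-fold lower (-1.24 ± 0.179, adjusted p = 6e-04).

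Ddit3 was 2.17-fold lower (log2 difference -1.12 ± 0.283 SE, adjusted p = 0.0138 in limma) and Hspa5 was 1.69-fold lower (-0.75 ± 0.136, adjusted p = 0.00226). Both Ddit3 probes pointed the same way, by -1.37 on the predicted transcript and -0.86 on the curated one. The call of Ddit3 was lost without NB_FACS replicate 1 (-0.97, adjusted p = 0.0556) or replicate 2 (-0.94, adjusted p = 0.0588). Xbp1 was not called (-0.42, 95% interval -0.79 to -0.04, adjusted p = 0.092), although its arrays did not overlap between the groups, and with A_FACS replicate 1 or replicate 2 left out of the fit it was called (-0.42, adjusted p = 0.0361 in both). Hsph1 was not called either (0.21, interval -0.35 to 0.77, adjusted p = 0.596). In all, 8 of the 9 genes did not overlap between these groups, as did 44.2% of all genes.

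Trib3 was 2.37-fold higher in NB_Control (log2 difference 1.24 ± 0.377 SE, adjusted p = 0.0317 in limma). Its difference was 0.59 between the 2 pairs of arrays on slide 1 and 2.55 in the single pair on slide 2. The call was lost without NB_Control replicate 3 (0.77, adjusted p = 0.0594), without NB_FACS replicate 1 (1.25) and without NB_FACS replicate 3 (1.06), and under Tukey's test (adjusted p = 0.267). For the 6 genes that fell, slide 2 gave the same direction, from -0.5 for Ddit3 to -2.83 for Hspa1a, and slide 1 gave -0.82 for Hspa5 to -3.76 for Hspa1a and Hspa1b.

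The cytokine mixture was added by the study to restore features of microglia in the brain, and its effect on these genes was read from NB_Stim against NB_Control. None of the 9 was called in limma, against 3.4% of all genes (666 genes, or 1192 with the replicate number as a block). Without adjustment, 0 of the 9 had a p under 0.05, and Tukey's test called 0. Differences ran from -0.55 for Ddit3 (95% interval -1.18 to 0.08, adjusted p = 0.423) to 0.25 for Trib3 (interval -0.59 to 1.1). Trib3 went opposite ways by slide, at 0.88 on slide 1 and -1 in the single pair on slide 2. By the mean of its 2 probes, Ddit3 was the only member whose arrays did not overlap between the 2 groups. Of all genes, 24% did not overlap there. The Ddit3 probe of the curated transcript kept the groups apart (-0.64). That of the predicted transcript (-0.45) overlapped, at 4.49 to 4.74 in NB_Control and 3.6 to 4.7 in NB_Stim.

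The intervals bound what the cytokines could have changed in the other members. They ran from -0.75 to 0.33 for Hspa1a and from -0.96 to 0.34 for Hspa1b, which differed by 0.09 on slide 1 and by -1.1 in the single pair on slide 2. For Dnajb1 the interval was -0.35 to 0.45, for Hspa5 -0.23 to 0.38, for Xbp1 -0.38 to 0.37 and for Atf4 -0.41 to 0.31. A 2-fold change of Dnajb1, Hspa5, Xbp1, Atf4, Hsph1 (-0.6 to 0.52) or Hspa1a thus lay outside its interval. For Hspa1b it lay only just outside, and the single pair on slide 2 differed by more than 2-fold. For Ddit3 and Trib3 a 2-fold change lay inside the interval. The spread between replicates set these widths.

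NB_Stim cells were therefore set against NB_FACS cells as well, a comparison that shares its NB_FACS arrays with the first. Again 6 genes were lower and 1 higher, with 7 of 9 called against 31.1% of all genes (15.1% lower, 16% higher). In NB_Stim, Hspa1a was 12.6-fold lower (log2 difference -3.66), Hspa1b 11.6-fold lower (-3.53), Atf4 3.85-fold lower (-1.94) and Ddit3 3.17-fold lower (-1.67, adjusted p = 0.00156 in limma). Dnajb1 (-1.18) and Hspa5 (-0.68) were lower by less than 3-fold, and Trib3 was 2.82-fold higher (1.5 ± 0.377 SE, adjusted p = 0.013). Xbp1 (-0.42, adjusted p = 0.0848) and Hsph1 (0.16) were not called. Xbp1 was called with 75th percentile scaling (-0.65, adjusted p = 0.0245) and with A_FACS replicate 1 or replicate 2 left out (adjusted p = 0.0332), and the Trib3 call was lost under Tukey's test (adjusted p = 0.144).

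Sorted adult microglia carried more of these transcripts than sorted newborn microglia. Killing and tissue dissociation differed by age, and their part in this difference was not tested. Of the 9 genes, 7 were higher in A_FACS and 0 lower, against 22.7% of all genes called in either direction and 9.75% called higher. Hspa1a was 11.1-fold higher (log2 difference 3.47 ± 0.27 SE, adjusted p = 4.58e-05, limma, n = 2 against 3) and Hspa1b 10.8-fold higher (3.44 ± 0.323, adjusted p = 0.000112). Hsph1 was 3.95-fold higher (1.98 ± 0.28, adjusted p = 0.000999) and Dnajb1 2.94-fold higher (1.55 ± 0.2, adjusted p = 0.000612).

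The ER genes Xbp1 (2.57-fold, log2 difference 1.36 ± 0.186 SE, adjusted p = 0.000854 in limma) and Hspa5 (2.04-fold, 1.03 ± 0.153, adjusted p = 0.00128) were higher in A_FACS too. Ddit3 was 2.47-fold higher (1.3 ± 0.316, adjusted p = 0.0157), by 0.81 on the probe of a curated transcript and by 1.8 on that of a predicted one, which is also the probe below background on 1 array, and its call was lost without A_FACS replicate 1 (1.1, adjusted p = 0.125). Atf4 was not called (0.23, 95% interval -0.17 to 0.63, adjusted p = 0.413), nor was Trib3 (0.83, interval -0.12 to 1.77, adjusted p = 0.197). Xbp1 and Atf4 thus had opposite profiles of calls, Xbp1 between the sorted ages and Atf4 between sorted and cultured newborn cells, and the difference between these contrasts was not tested. Of the 9 genes, 8 did not overlap between A_FACS and NB_FACS, as did 51.2% of all genes. Both A_FACS arrays were on slide 1, and NB_FACS replicate 3 was on slide 2. Without that replicate 7 of the 9 were still called, as were 3683 of all 19565 genes. Hspa1a (3.2), Hspa1b (3.19), Hsph1 (1.68) and Ddit3 (0.99) then had their smallest differences among the fits that left out 1 array.

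**Figure D3:**
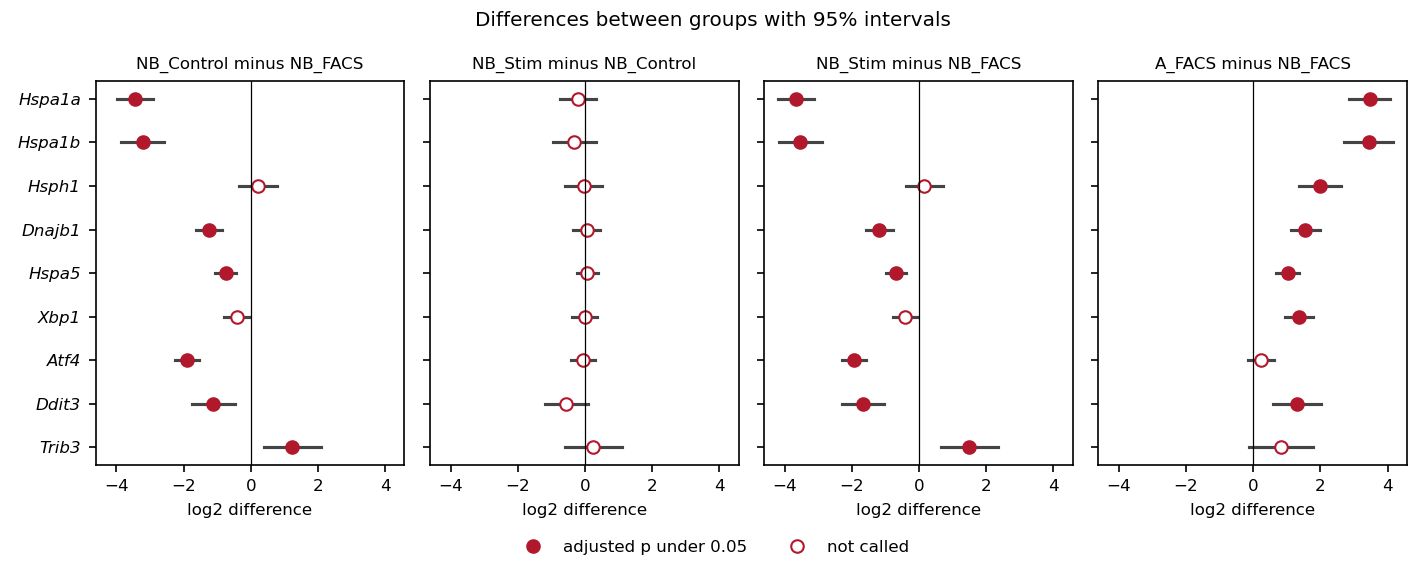
Log2 difference (horizontal axis) of each measured member in 4 comparisons, with 95% intervals from limma, filled where the adjusted p was under 0.05. Hspa1a and Hspa1b lie furthest from 0, at -3.45 and -3.22 for culture and at 3.47 and 3.44 for adult cells against sorted newborn cells, and all points for the cytokines are open.

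Against culture, where age, sex, killing, isolation and culture all differed, 8 of the 9 genes were higher in A_FACS. Of all genes, 40.8% were called against NB_Control (17.7% higher) and 40.2% against NB_Stim (17.5% higher). Hspa1a was 121-fold higher than in NB_Control (log2 difference 6.92) and 140-fold higher than in NB_Stim (7.13), and for Hspa1b the figures were 101-fold (6.66) and 125-fold (6.97). The remaining gene was Trib3 (-0.42 and -0.67, adjusted p = 0.464 and 0.232 in limma). On slide 1 alone Trib3 was called lower in A_FACS than in NB_Stim (-0.82, adjusted p = 0.0168).

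Further genes of these pathways, from lists that hold none of the members, moved in both directions rather than together. Of 37 other cytosolic chaperones and heat shock genes, 6 were higher and 8 lower in NB_Control than in NB_FACS, so 37.8% were called where 29.7% of all genes were, with a median log2 difference of -0.25 where that of all genes was 0.09. The small heat shock proteins Hspb8 (3.58, adjusted p = 0.000127 in limma) and Cryab (3.03) rose, while Dnajb4 (-2.05), an Hsp40, and Hspa14 (-1.63), an Hsp70-like protein of the ribosome-associated complex, fell. In A_FACS against NB_FACS 5 were higher and 7 lower (32.4% called against 22.7% of all genes, median -0.04), with Hspa2, an Hsp70 best known from testis, at 1.99 and Hspb8 at 1.68 among the higher ones and Hspa4l, an Hsp110, at -0.9 and Hspa14 at -0.73 among the lower. The 2 adult arrays differed for Hspb8 (8.02 and 9.89), and its difference was 0.74 without A_FACS replicate 2 and 2.62 without A_FACS replicate 1. Its call was also lost in limma without NB_FACS replicate 1 (1.53, adjusted p = 0.0637) or NB_FACS replicate 2 (1.66, adjusted p = 0.0585). Without A_FACS replicate 1, 5 of the 37 were called in place of 12, and the calls of Hspa4l (-0.58, adjusted p = 0.124) and Hspa14 (-0.7, adjusted p = 0.052) were lost. With cytokines, where 3.4% of all genes were called, 1 of the 37 was called in limma, Fkbp5, a co-chaperone of Hsp90 (1.7, adjusted p = 0.0123). That call was lost without NB_Stim replicate 1 (adjusted p = 0.0534), and 0 were called by Tukey's test or with cultured replicates 1 and 2 averaged.

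Of 36 other ER chaperones and genes of ER-associated degradation, 5 were higher and 5 lower in NB_Control than in NB_FACS (27.8% called against 29.7% of all genes, median -0.03). Herpud1, an ER-stress-induced part of the degradation machinery, fell by 3.64 on the log2 scale (12.5-fold, adjusted p = 4.58e-06 in limma), and Edem1, which hands misfolded glycoproteins to it, fell by 1.37. Wfs1, an ER membrane protein, rose (1.48), as did the ER oxidase Ero1a (0.93), whose call held in 1 of 6 fits that left out an array of these groups, the one without NB_Control replicate 3. In A_FACS, 8 were higher and 4 lower than in NB_FACS (33.3% called against 22.7% of all genes, median 0.23). Herpud1 (1.52) and Dnajb9 (1.1) were among the higher, and the disulphide isomerase Txndc5 (-1.44) and the translocon subunit Sec61b (-1.28) among the lower. Without A_FACS replicate 1, 6 of the 36 were called in place of 12. With cytokines 0 of the 36 were called in limma, against 3.4% of all genes, and 0 by Tukey's test. In limma 2 had an unadjusted p under 0.05, and 1 was called with the replicate block.

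The integrated stress response list had the largest share of genes called among the 4 stress lists between sorted and cultured newborn cells, at 55% where 29.7% of all genes were called. Of 40 targets other than Ddit3 and Trib3, 8 were higher and 14 lower in NB_Control than in NB_FACS (median -0.26). Ppp1r15a, the phosphatase subunit GADD34 that reverses eIF2alpha phosphorylation, fell by 4.04 (16.5-fold), and the bZIP repressor Jdp2 fell by 3.35 on the log2 scale. The death receptor gene Tnfrsf10b rose (2.65), and the secreted glycoprotein gene Stc2, which was not well above background on any NB_FACS array, was at least 2.58-fold higher (adjusted p = 0.000418 in limma). In A_FACS 3 were higher and 8 lower than in NB_FACS (27.5% called against 22.7% of all genes, median -0.22), Ppp1r15a (1.08) and the BH3-only gene Bbc3 (1.12) being higher and the amino acid transporter Slc1a4 (-2.22) and the serine synthesis enzyme Psat1 (-2.16) lower. Without A_FACS replicate 1, 7 of the 40 were called in place of 11, Ppp1r15a (0.78, adjusted p = 0.222) and Bbc3 (1.13, adjusted p = 0.0537) no longer among them. With cytokines, where 3.4% of all genes were called, Psat1 was the 1 of the 40 called in limma (1.84, adjusted p = 0.0259). With the replicate block 3 of the 40 were called. Psat1 kept its call in 1 of 6 fits that left out an array of these groups, the one without NB_Stim replicate 3, with differences of 1.59 to 2.12, and 0 of the 40 were called by Tukey's test or with cultured replicates averaged. In NB_Stim against NB_FACS, 9 were higher and 13 lower, where 16% of all genes were called higher and 15.1% lower. The transsulphuration enzyme Cth was among the higher ones (2.57), a gene above background on 1 of the 3 NB_FACS arrays.

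Of 17 sensors and regulators, 4 were higher and 2 lower in NB_Control than in NB_FACS (35.3% called against 29.7% of all genes, median -0.01). Nfe2l2, the NRF2 factor of the oxidative stress response, fell by 0.88, and Ppp1r15b, the constitutive eIF2alpha phosphatase subunit, fell by 0.78 on the log2 scale, while Hsf4 (1.85), a heat shock factor best known from lens that was above background on 1 of the 3 NB_FACS arrays, and Eif2ak2 (0.83), the kinase PKR, rose. In A_FACS against NB_FACS 1 was higher, Ppp1r15b (0.73), and 1 lower, Eif2s1 (-0.63), the alpha subunit of eIF2. That was 11.8% called against 22.7% of all genes. Both calls were lost without A_FACS replicate 1 (Ppp1r15b 0.56, adjusted p = 0.142, and Eif2s1 -0.74, adjusted p = 0.0618), when 1 other of the 17 was called, that of Eif2s1 also without A_FACS replicate 2, NB_FACS replicate 2 or NB_FACS replicate 3, while the replicate block called 4 of the 17. With cytokines 0 of the 17 were called in limma, against 3.4% of all genes, and 0 by Tukey's test. In limma 4 had an unadjusted p under 0.05, and 1 was called with the replicate block.

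**Figure D4:**
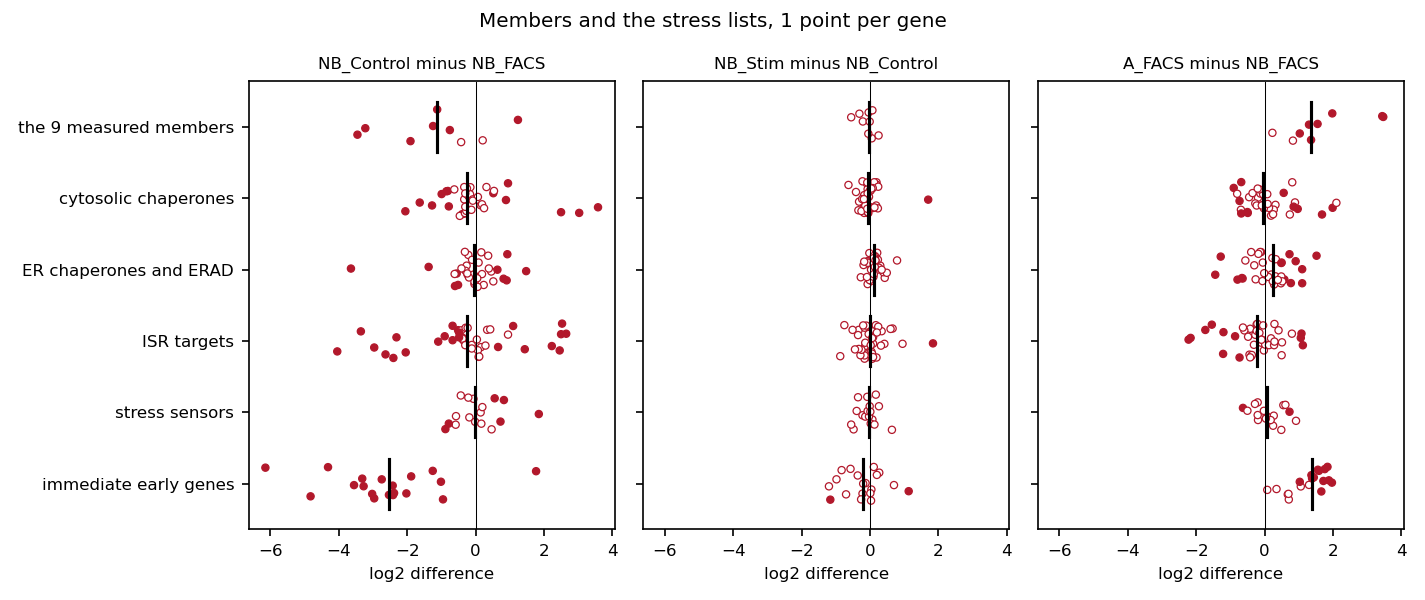
Log2 difference (horizontal axis) of each gene of 6 lists in 3 comparisons, with 1 point per gene, filled where the adjusted p was under 0.05, and a bar at the list's median (ERAD, ER-associated degradation; ISR, integrated stress response). The medians of the 4 stress lists lie between -0.26 and 0.23, while those of the members and of the immediate early genes lie further from 0 in the left and right panels.

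Immediate early genes, transcribed within minutes of a stimulus, are often read as a sign of tissue dissociation. They moved in the direction of most members between culture and sorted newborn cells and between the sorted ages. Of 19 measured, 18 were lower and 1 higher in NB_Control than in NB_FACS (median -2.53). Of all genes, 13.9% were called lower and 15.8% higher there (median 0.09). In A_FACS against NB_FACS, 12 of the 19 were higher and 0 lower (median 1.39). Of all genes, 22.7% were called there in either direction and 9.75% higher (median -0.01). Their mean log2 level ranged from 14.03 to 14.37 in A_FACS, from 12.64 to 13.09 in NB_FACS, from 10.14 to 10.45 in NB_Control and from 9.87 to 10.26 in NB_Stim. In NB_Control Egr1 fell by 4.31, Dusp1 fell by 3.27, Jun fell by 2.74 and Fos fell by 2.53 on the log2 scale, and in A_FACS against NB_FACS these 4 were higher by 1.76, 1.39, 1.37 and 1.56. Atf3, a stress-induced factor of the integrated stress response list, was at -2.31 and was not called between the sorted ages (0.8, adjusted p = 0.0895 in limma). The part of this program in the differences of the members was not tested.

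The mean level of the 9 members ranged from 12.64 to 12.79 on A_FACS arrays, from 10.7 to 11.28 on NB_FACS, from 9.75 to 10.01 on NB_Control and from 9.59 to 9.89 on NB_Stim. Endothelial markers followed a like order (8.76 to 9.46, 7.62 to 8.43, 4.86 to 5.45 and 5.51 to 5.65). Tek was above background on every sorted and on no cultured array, and Slco1a4 was also above it on no cultured array. Pecam1, Cdh5, Flt1 and Kdr were above background on every array, and Cldn5 on every array outside NB_Stim and on 2 of the 3 in it. Border macrophage markers did not, at 4.43 to 6.22 in A_FACS, 8.57 to 9.89 in NB_FACS, 8.97 to 9.64 in NB_Control and 7.07 to 7.46 in NB_Stim. Of the fibroblast markers, Col3a1 was above background on no A_FACS array and on every newborn array, and Lum was also above it on no A_FACS array. Col1a2, Tagln and Acta2 were above background on both A_FACS arrays, and Col1a1, Dcn and Pdgfra on 1 of them. The part of other cell types in the members' differences was not tested.

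**Figure D5:**
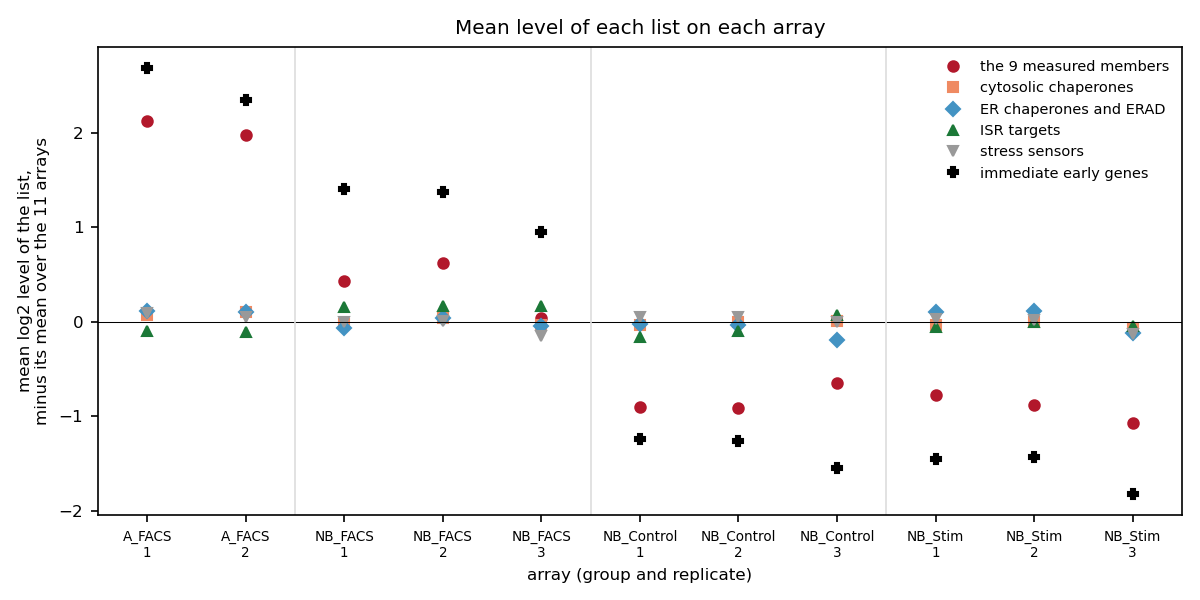
Mean log2 level of each list on each array (vertical axis), minus the list's own mean over the 11 arrays, with 1 symbol per list and arrays ordered by group (ERAD, ER-associated degradation; ISR, integrated stress response). The members and the immediate early genes step down from sorted adult to sorted newborn to cultured arrays, and the other 4 lists stay near 0.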

How the data were processed

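Total RNA of 11 microglia samples was labelled with Cy3 and hybridised to single-colour Agilent arrays. The authors deposited one background-subtracted signal intensity per spot (gProcessedSignal, Agilent Feature Extraction 11.5.1.1) and a table of the same intensity values, of which 0 of 62927 entries differed from the scanner files (relative tolerance 1e-05). The sample titles gave each array's group and replicate number. Of 60037 probes, 36264 (60.4%) were matched by RefSeq accession to 23329 symbols (reference table GRCm38.p6), and 138 were left out because an array had only flagged spots for them. Log2 values of all probes were quantile normalised with limma 3.58.1 in R 4.3.3. A probe was kept (44738 in all) if 1 group or more had it well above background on each of its arrays, and probes of a gene were averaged, giving 19565 genes.

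One mean per group was fitted over all 11 arrays in limma (lmFit and eBayes, two-sided moderated test, 7 residual and 2.69 prior degrees of freedom). Benjamini-Hochberg adjustment ran over all genes within a comparison, and genes were called at an adjusted p under 0.05. The script was tested on simulated data. Lists were described by counts and medians, with no list test. Arrays give no read depth, so that their number limits the precision.

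Same-numbered arrays of the newborn groups deviated together (correlations of deviations from the group means 0.112 to 0.489 in all pairs), replicate 3 being on slide 2, so that a fit with the replicate number as a block was run beside the design without it. Alternatives were 75th percentile scaling, normexp background correction, other filters and probe rules, an intensity trend and the deposited table. Others were slide or replicate blocks, Tukey's test, smaller sets of arrays and leaving out each array. Tukey's test, which the study's methods name, used each gene's own variance. Its p-values were then adjusted by Benjamini-Hochberg over all genes, a step those methods do not describe. Cultured replicates 1 and 2 were also averaged. Their median absolute log2 difference was 0.119 in NB_Control and 0.128 in NB_Stim, against 0.298 to 0.363 from replicate 3. For NB_FACS replicates 1 and 2 it was 0.169.

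The members and lists were chosen with earlier results of these data known. The genes named are all members and, from each of 4 stress lists and 4 comparisons, up to 2 largest rises and 2 largest falls among called genes whose groups did not overlap, with Fos, Jun, Egr1, Dusp1 and Atf3 and, for each member, up to 3 genes of nearest profile (mean absolute difference of centred log2 levels). Of these, not all are printed. Marker genes named beside the results were chosen after their values were seen. Promoter sequences came from RefSeq windows on GRCm38.p6 and figures were drawn with matplotlib 3.10.9.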

Additional observations from a re-analysis of the deposited data

How the results depend on the processing

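Over 166 recomputations of the number of members called and of the F test, the F test passed 8 to 9 of the 9 members, and the count called was 5 to 8 for NB_Control against NB_FACS, 0 throughout for NB_Stim against NB_Control, 6 to 8 for NB_Stim against NB_FACS, 6 to 7 for A_FACS against NB_FACS, 8 for A_FACS against NB_Control and 8 to 9 for A_FACS against NB_Stim. With the replicate block these counts were 7, 0, 7, 7, 8 and 8, and no call of a member changed. Lost calls were limited to Trib3 and Ddit3. Besides those given with the results, Trib3 lost its call for NB_Control against NB_FACS with only these groups fitted (adjusted p = 0.0714) and on slide 1 alone (0.0678), and Ddit3 with Tukey's test (0.138) or cultured replicates 1 and 2 averaged (0.0515). For A_FACS against NB_FACS, Ddit3 lost it with Tukey's test (0.151) and with only these groups fitted (0.0615). The cause was not tested.

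Signs turned only for differences that were not called. For NB_Stim minus NB_Control, 75th percentile scaling gave Hsph1 0.06, Dnajb1 -0.22 and Hspa5 -0.14, normexp gave Xbp1 0.01, slide 1 alone gave Hspa1a 0.02, Hspa1b 0.09 and Atf4 0.1, and averaging replicates 1 and 2 gave Xbp1 0.04 and Trib3 -0.06. Leaving out each array in turn gave ranges across 0 of -0.13 to 0.01 for Hsph1, -0.05 to 0.15 for Dnajb1, -0.06 to 0.05 for Xbp1, -0.13 to 0.09 for Atf4 and -0.03 to 0.73 for Trib3. Hsph1 ranged in this way from -0.1 (without NB_FACS replicate 3) to 0.39 for NB_Control minus NB_FACS and from -0.14 to 0.35 for NB_Stim minus NB_FACS, and on slide 1 alone it was -0.01 and -0.13. Trib3 ranged from -0.7 to 0.06 (without NB_Control replicate 3) for A_FACS minus NB_Control and was also 0.06 on slide 1 alone.

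Counts over all genes moved more. They ran from 118 (cultured replicates averaged) to 1474 (slide block) for NB_Stim against NB_Control, from 3548 to 8043 for NB_Control against NB_FACS, from 3621 to 8953 for NB_Stim against NB_FACS and from 2015 to 6441 for A_FACS against NB_FACS, with Tukey's test lowest in the last 3. Without A_FACS replicate 1 the last count was 2456, and the list counts fell as given with them. For that comparison Tukey's test called 3 of the cytosolic chaperones, 6 of the ER list, 3 of the integrated stress response targets and 0 of the sensors. With 2 or 3 arrays a group and 1 probe for most members, small differences could not be resolved.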
